A study of Mus musculus with 4 samples.

Results

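The Groucho/TLE corepressor genes Tle1, Tle2, Tle3, Tle4, Tle6 and Aes were examined for Runx3 binding in mouse splenic CD4+ dendritic cells (DC). A peak, a region called as bound by Runx3, was counted for a gene when its centre lay in the gene body or within 50 kb of it, with genes taken from the GENCODE M1 annotation on mm9. By this rule 17 of the 15121 peaks in the genome lay at the 6 TLE genes. The peaks came from chromatin immunoprecipitation followed by sequencing (ChIP-seq) of WT CD11chiMHCII+CD4+ conventional DC, sorted from spleens pooled from approximately 15 mice a sample. Both Runx3 samples were precipitated with a home-made polyclonal Runx3 antibody, and 2 input samples of unprecipitated chromatin served as background. The labels give the strain as C57BL/6 for both Runx3 samples and for input 1, and as C57BL/7 for input 2. No cells lacking Runx3 were part of the ChIP-seq, and the labelled cell type could not be checked on marker genes because a peak list holds no expression values.

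Runx3 is one of the RUNX factors, which bind DNA through the Runt domain together with Cbfb and recognise sequences built around TGTGGT. TLE proteins do not bind DNA on their own. They are brought to genes by factors such as RUNX, Hes and TCF/LEF proteins and lower transcription there, in part with histone deacetylases. RUNX proteins end in a short VWRPY peptide that the WD40 repeats of TLE proteins bind. Tle1, Tle2, Tle3 and Tle4 encode full-length members of the family. Aes encodes a short member that keeps the amino-terminal oligomerisation domain and lacks the WD40 repeats. Tle6 encodes a divergent member, best known from oocytes and early embryos. The values below describe where Runx3 was bound near these genes and not the binding of TLE proteins, which the data do not measure.

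Each of the 6 TLE genes had at least 1 Runx3 peak. Of all 22367 protein-coding genes, 13997 or 62.6% had a peak under the same rule, so having a peak is common. Tle3 had 7 peaks, Tle2 and Tle6 had 6 each, Aes had 5, Tle1 had 2 and Tle4 had 1. The median over the TLE genes was 5.5 peaks, and that over all protein-coding genes was 1.0, with a range of 0 to 64. The former counts the peaks shared by neighbouring TLE genes once for each gene. With each peak given only to the protein-coding gene with the nearest TSS, the medians were 1.5 and 0.0, and 4 of the 6 TLE genes and 36.5% of all protein-coding genes had a peak. Of all protein-coding genes, 4.44% had at least as many peaks as Tle3, 7.31% as many as Tle2 and Tle6, 11.7% as many as Aes, 44.3% as many as Tle1 and 62.6% as many as Tle4. The genes with most peaks were thus not those with the longest windows. Tle4 had the longest window, 249.9 kb with both flanks, and 0.4 peaks per 100 kb. Tle1, with 183.8 kb, had 1.09 peaks per 100 kb. Tle3, with 146.1 kb, had 4.79 peaks per 100 kb, a density reached by 5.83% of protein-coding genes, among which the median was 0.88. Aes, Tle2 and Tle6 had 4.68, 5.16 and 5.45 peaks per 100 kb, but these windows overlap on chromosome 10 and largely hold the same peaks.

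**Figure D1:**
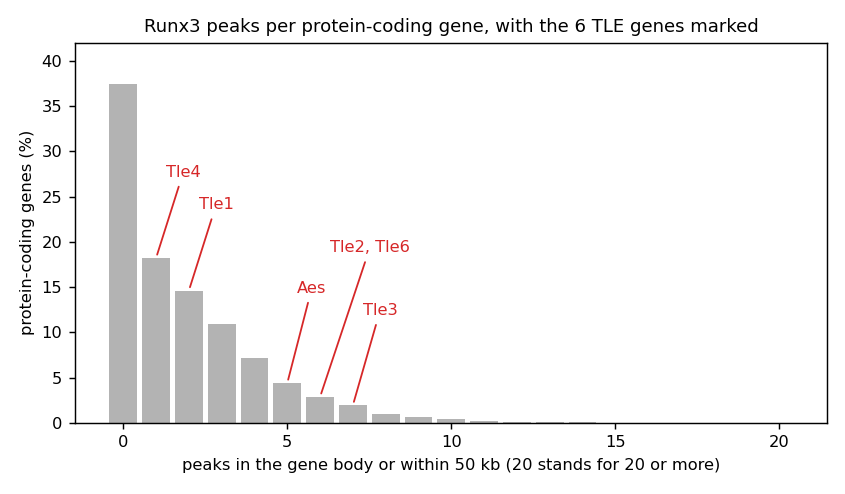
Runx3 peaks per protein-coding gene. The horizontal axis gives the number of peaks in the gene body or within 50 kb, with 20 standing for 20 or more, and the bars give the percentage of the 22367 protein-coding genes. The red labels mark the TLE genes, with Tle4 at 1 peak, Tle1 at 2, Aes at 5, Tle2 and Tle6 at 6 and Tle3 at 7.

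The score that the peak caller MACS2 gave each peak ranked the peaks within the list, where the lowest was 1.33, the median 12.14 and the highest 309.3. Its unit is not stated. Among the 17 peaks at the TLE genes the lowest score was 3.69, the median 17.32 and the highest 62.39. Of them, 10 lay at or above the median of the list and 5 at or above its upper quartile of 23.19. Their widths ran from 256 to 980 bp with a median of 461 bp, against 406 bp over the list. The list was called on both Runx3 samples together, so the replicates cannot be compared at any peak, values have no error between replicates, and none of the differences below was tested.

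**Figure D2:**
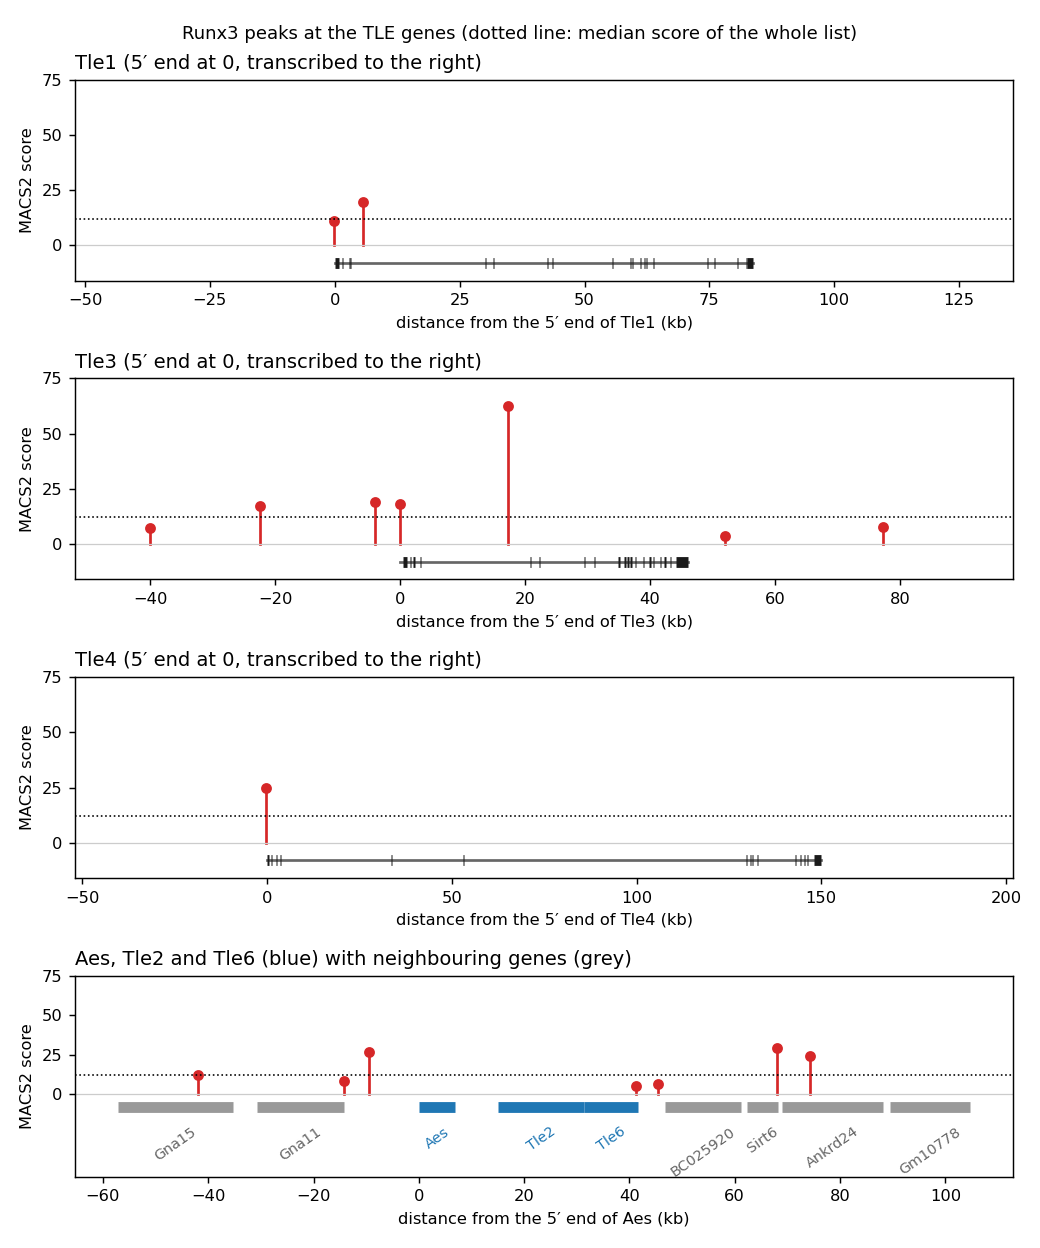
Position and score of the Runx3 peaks at the TLE genes. Horizontal axes give the distance in kb from the 5′ end of the gene named below each panel, with the gene transcribed to the right and exons as ticks in the upper 3 panels, and vertical axes give the MACS2 score, with stems at peak centres and the median of the list, 12.14, dotted. The peak in intron 4 of Tle3, with a score of 62.39, stands above the other 16, and the lowest panel shows no peak inside Aes or Tle2.

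Tle3 carried the highest score and the most peaks. The gene spans chr9:61220190-61266297 on the plus strand of mm9, and its 7 peaks had scores of 7.2, 17.32, 18.95, 18.13, 62.39, 3.69 and 7.84 in the order of the gene's transcription. The highest ranked 630th of 15121. It covered chr9:61237213-61237741, 529 bp in intron 4, with its centre 17287 bp downstream of the 5′ end and 12189 bp upstream of the nearest annotated transcription start site (TSS), which belongs to a shorter Tle3 transcript. This peak held TGTGGT at 2 places, centred 5 bp and 92 bp from the peak centre. It held 1 GAGGAAG, a sequence bound by the ETS factor PU.1. Both hexamers are shown in capitals here because they lie in the peak with the highest score at any TLE gene.
Tle3 intron 4, chr9:61237464-61237586, plus strand: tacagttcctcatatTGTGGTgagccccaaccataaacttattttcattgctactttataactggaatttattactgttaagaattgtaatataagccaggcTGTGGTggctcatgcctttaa

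The next 3 Tle3 peaks by score lay at or before the 5′ end and had nearly the same score. The promoter peak, chr9:61219956-61220419, scored 18.13 and ranked 4991st, with its centre 3 bp from the Tle3 TSS. Gm10655 starts on the opposite strand 190 bp from that TSS, with its own TSS 187 bp from the peak centre, so this peak sits on both starts. The peak held TGTGGT once, 56 bp from its centre and inside the transcribed leader of Tle3, together with 1 TGACGT and 1 GAGGAAG. A peak at chr9:61216082-61216444, 3927 bp upstream of the TSS, scored 18.95 and held TGTGGT once, 147 bp from its centre. A peak at chr9:61197484-61198049, 22424 bp upstream, scored 17.32 and held TGTGGT at 2 places, the nearer 18 bp from the centre. The nearest protein-coding TSS to both of these is that of Gm10655, which starts slightly closer to them than Tle3 does. The hexamer at the promoter and the one nearest the centre of the distal peak are shown in capitals, where ACCACA is TGTGGT read on the other strand.
Tle3 promoter, chr9:61220228-61220257, plus strand: cgcctgtctgtgTGTGGTatccgcaggtcc
Tle3 upstream peak, chr9:61197746-61197821, plus strand: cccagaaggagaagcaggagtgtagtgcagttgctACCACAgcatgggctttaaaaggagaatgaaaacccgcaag

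The remaining 3 Tle3 peaks scored below the median of the list and lay outside the gene. The farthest upstream, 39971 bp before the TSS, scored 7.2 and held TGTGGT once, 25 bp from its centre. It was the only peak at a TLE gene with the AP-1 site TGANTCA, which reads the same on both strands. The farthest downstream, 77275 bp from the 5′ end, scored 7.84 and held TGTGGT at 2 places, the nearer 29 bp from its centre. The peak between the gene end and that one, 52038 bp from the 5′ end, scored 3.69, ranked 14412th and held no TGTGGT. The next peak outside the window lay 77319 bp from the gene and scored 10.45. TGTGGT was thus present in 6 of the 7 Tle3 peaks, a share of 85.7% with a 95% Wilson interval of 48.7% to 97.4%. Of all peaks in the list 54.0% held it, a share inside that interval. Windows of the same width 10 kb downstream held it for 2 of the 7 Tle3 peaks. The interval treats these peaks as independent, although all of them lie at the same gene.

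Tle4 had its only peak at its promoter. The gene spans chr19:14522562-14672473 on the minus strand, 149912 bp, and the peak covered chr19:14672264-14673243. At 980 bp it was the widest of the 17. It scored 24.94, ranked 3381st, and its centre lay 280 bp upstream of the TSS. No peak was called in the gene body, and the next peak lay 70760 bp from the gene with a score of 19.78. TGTGGT occurred once, 420 bp from the peak centre, in the transcribed leader of Tle4 and on the strand of the gene. Counting the related letters TGCGGT and CGTGGT and CGCGGT as well, the peak held 4 such hexamers. The TGTGGT is shown in capitals because it is far from the centre of its peak, unlike most of the others.
Tle4 promoter, chr19:14672318-14672347, minus strand: aaggaaatgaaaTGTGGTaaaagaagctaa

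Tle1 had 2 peaks, both near its 5′ end. The gene spans chr4:71778176-71861953 on the minus strand, and the next peak outside its window was 825189 bp away. The promoter peak, chr4:71861571-71862466, was 896 bp wide, scored 11.24 and ranked 8008th, just below the median of the list, with its centre 65 bp upstream of the TSS. It held no TGTGGT. It held 5 of the related hexamers, 3 CGCGGT, 1 TGCGGT and 1 CGTGGT, with a CGCGGT 14 bp from the centre. The other peak, chr4:71856138-71856516, scored 19.78 and ranked 4543rd. It lay in intron 4, 5626 bp downstream of the 5′ end and 3799 bp downstream of a TSS of another Tle1 transcript. Its TGTGGT was 15 bp from the centre, with 1 TGCGGT nearby. The sequences around both centres are printed on the strand of the gene to set the promoter beside the intron. Capitals mark the hexamer nearest the centre of each peak.
Tle1 promoter, chr4:71861966-71862041, minus strand: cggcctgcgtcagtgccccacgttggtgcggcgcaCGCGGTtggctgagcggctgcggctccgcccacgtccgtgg
Tle1 intron 4, chr4:71856304-71856379, minus strand: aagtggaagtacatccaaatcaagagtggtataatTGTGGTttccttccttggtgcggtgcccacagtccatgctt

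Aes, Tle2 and Tle6 lie side by side on chromosome 10 and shared their peaks. Aes spans chr10:81022239-81029107 and Tle2 chr10:81037306-81053590, both on the plus strand, and Tle6 spans chr10:81053649-81063818 on the minus strand. The gap between Aes and Tle2 is 8198 bp and the ends of Tle2 and Tle6 are 58 bp apart, so the 3 genes fit in 41.58 kb. Their windows held 7 distinct peaks, of which 4 were counted for all 3 genes, 2 for Tle2 and Tle6, and 1 for Aes. Counted once for each gene, the peaks at the 6 TLE genes would number 27 in place of 17. None of the 7 peaks had its centre inside Aes or Tle2, and 1 had it inside Tle6.

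The peak at Tle6 was among the weakest. It covered chr10:81063383-81063638 in intron 1, scored 5.36 and ranked 12811th, with its centre 92 bp downstream of a Tle6 TSS and 308 bp downstream of the 5′ end of the gene. It held no TGTGGT and 2 GAGGAAG. A further peak, chr10:81067435-81067852, lay 3825 bp upstream of Tle6 and 1372 bp upstream of BC025920 and scored 6.57. It held TGTGGT 6 times, more than any other peak at a TLE gene. All 6 copies were on the minus strand, within 136 bp, in a stretch of repeated CA. The stretch is shown because the count of hexamers and the rank of the score stand far apart in this peak. Capitals mark ACCACA, which is TGTGGT on the other strand.
Tle6 upstream peak, chr10:81067542-81067701, plus strand: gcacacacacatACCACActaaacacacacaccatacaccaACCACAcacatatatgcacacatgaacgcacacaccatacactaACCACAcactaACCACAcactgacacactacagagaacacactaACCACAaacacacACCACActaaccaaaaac

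The peak closest to Aes was chr10:81012414-81012985, 9540 bp upstream of its TSS and outside any protein-coding gene. It scored 26.73, ranked 3078th and held TGTGGT 28 bp from its centre, with 1 TGACGT and 1 GAGGAAG. This peak lay closer to the TSS of Gna11, which encodes an alpha subunit of heterotrimeric G proteins and starts 4764 bp away. Its hexamer is shown in capitals because the peak had the highest score of those on chromosome 10 that lay away from a promoter.
Aes upstream peak, chr10:81012633-81012708, plus strand: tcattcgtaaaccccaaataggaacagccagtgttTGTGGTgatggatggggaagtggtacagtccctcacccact

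The other 4 peaks of this cluster were at neighbouring genes. Sirt6, which encodes a histone deacetylase of the sirtuin family, had a peak in its exon 1, 31 bp from its TSS. That peak scored 29.48 and ranked 2665th, the highest of the cluster. A peak 4 bp from a TSS of Ankrd24 scored 24.06. A peak 149 bp upstream of Gna11 scored 8.49. A peak in intron 1 of Gna15, which encodes another G protein alpha subunit, scored 12.38 and was counted for Aes from a distance of 41989 bp. Of these 4, only the Gna15 peak held TGTGGT, at 2 places, the nearer 6 bp from its centre. When each peak was given to the protein-coding gene with the nearest TSS, Tle6 kept 1 peak, and Aes and Tle2 had none. Their counts of 5 and 6 peaks are counts of the neighbourhood.

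**Figure D3:**
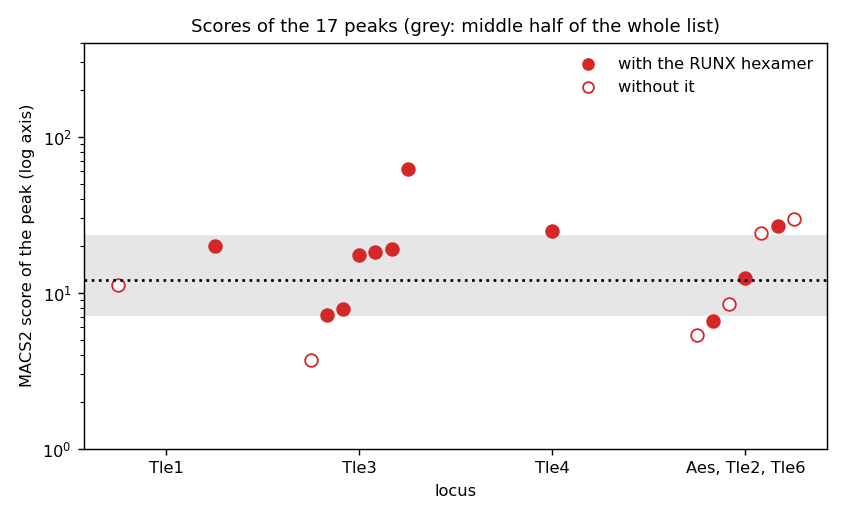
MACS2 score of the 17 peaks by locus. The vertical axis is logarithmic, each point is a peak, filled where it holds TGTGGT and open where it does not, with points spread sideways only to part them, and the dotted line and grey band give the median of 12.14 and the middle 50% of the list, 7.2 to 23.19. The Tle3 intron peak stands at 62.39, and the open points include both the weakest peak at 3.69 and the Sirt6 promoter peak at 29.48.

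A promoter peak, centred at most 1 kb from any TSS that the annotation gives the gene itself, was present at 4 of the 6 TLE genes, Tle1, Tle3, Tle4 and Tle6. Of all protein-coding genes, 5578 or 24.9% had such a peak. The 4 promoter peaks scored 11.24, 18.13, 24.94 and 5.36 in that order. Aes and Tle2 had no promoter peak, which says only that none was called there at this depth of sequencing. Including the promoters of Gna11, Sirt6 and Ankrd24, 7 of the 17 peaks lay within 1 kb of a protein-coding TSS.

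TGTGGT was looked for in full peaks on either strand and occurred in 11 of the 17 peaks, or 64.7% with a 95% Wilson interval of 41.3% to 82.7%. Of all 15121 peaks 54.0% held it, a share inside that interval. Windows of the same width 10 kb downstream held it for 5 of the 17 peaks, or 29.4%, and for 30.9% of the list. Within the central 200 bp alone, 9 of the 17 peaks had the hexamer, or 52.9%, against 41.8% of the list. The nearest hexamer lay a median of 25 bp from the centre at the TLE genes and 45.5 bp over the list. At least 2 copies were present in 5 of the 17 peaks, or 29.4%, and in 18.5% of the list. With TGCGGT and CGTGGT and CGCGGT added to the search, 13 of the 17 peaks or 76.5% held a hexamer, against 76.6% of the list. Downstream windows held such a hexamer for 10 of the 17 peaks, or 58.8%, and for 39.0% of the list. These intervals cover counting error only, and several of the peaks share a locus.

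**Figure D4:**
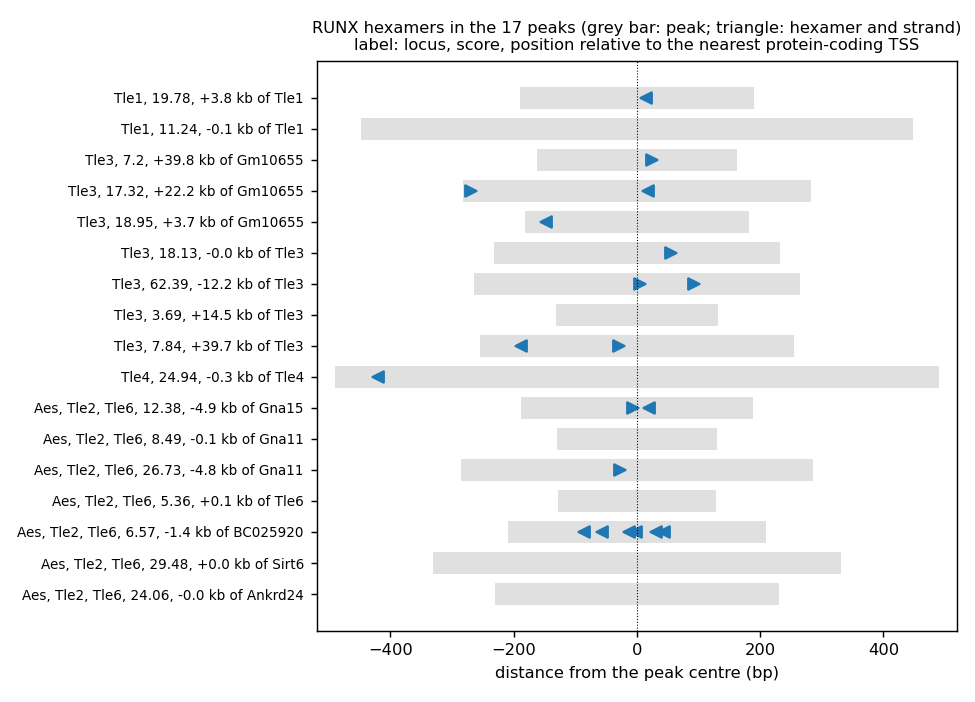
Position of TGTGGT in the 17 peaks. The horizontal axis gives the distance from the peak centre in bp, each grey bar is a peak drawn to its width, and triangles mark hexamers and point right for the plus strand and left for the minus strand. Labels give the locus, the score and the distance in kb from the nearest protein-coding TSS, negative when upstream, and 6 peaks carry no triangle.

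Peaks near a TSS and distal peaks at the TLE genes differed in how often they held TGTGGT. Among the 10 peaks farther than 1 kb from any protein-coding TSS, 9 held TGTGGT, and their downstream windows held it in 1 of 10 cases. Among the 7 peaks nearer than that, 2 held it, those at Tle3 and Tle4, and their downstream windows held it in 4 of 7 cases. The Wilson intervals are 59.6% to 98.2% for the distal peaks and 8.22% to 64.1% for those near a TSS. Over the whole list, 65.7% of 9635 distal peaks and 33.6% of 5486 peaks near a TSS held the hexamer, so the direction of the difference at the TLE genes was that of the list. Downstream windows over the list held TGTGGT for 29.4% of distal peaks and 33.6% of peaks near a TSS. Near a TSS, the share over the list was thus the same in peaks as in downstream windows. The difference between distal peaks and peaks near a TSS depended on the letters searched. With TGCGGT and CGTGGT and CGCGGT counted as well, 77.2% of distal peaks and 75.5% of peaks near a TSS in the list held a hexamer, and 9 of 10 and 4 of 7 at the TLE genes. Downstream windows held such a hexamer for 37.4% of distal peaks and 41.8% of peaks near a TSS in the list. At the TLE genes they did so for 4 of 10 and 6 of 7. TGCGGT alone ran the other way over the list, in 14.4% of distal peaks and 30.1% of peaks near a TSS, and was found in 1 of 10 and 2 of 7 at the TLE genes. Base composition moved with it. The 7 peaks near a TSS had 57.3% to 73.6% G and C bases with a median of 61.7%. The 10 distal peaks had 40.9% to 53.2% with a median of 49.8%, so these few peaks did not overlap. Over the list the ranges overlapped widely, from 31.3% to 75.9% near a TSS and from 26.0% to 74.5% in distal peaks. The medians there were 60.1% and 47.6%. The ratio of observed to expected CpG was a median of 0.873 near a TSS and 0.206 in distal peaks, against 0.761 and 0.227 over the list. The part of base composition in the difference was not tested.

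The 6 peaks without TGTGGT were the promoter peaks of Tle1, Tle6, Gna11, Sirt6 and Ankrd24 and the weakest Tle3 peak. They scored between 3.69 and 29.48, and their median was 9.865. The 11 peaks with the hexamer scored 6.57 to 62.39 with a median of 18.13, and the groups overlapped. Over the list the medians were 14.2 with and 10.53 without it. Scores of the peaks near a TSS and of distal peaks had medians of 18.13 and 14.85 at the TLE genes and 12.69 and 11.98 over the list.

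**Figure D5:**
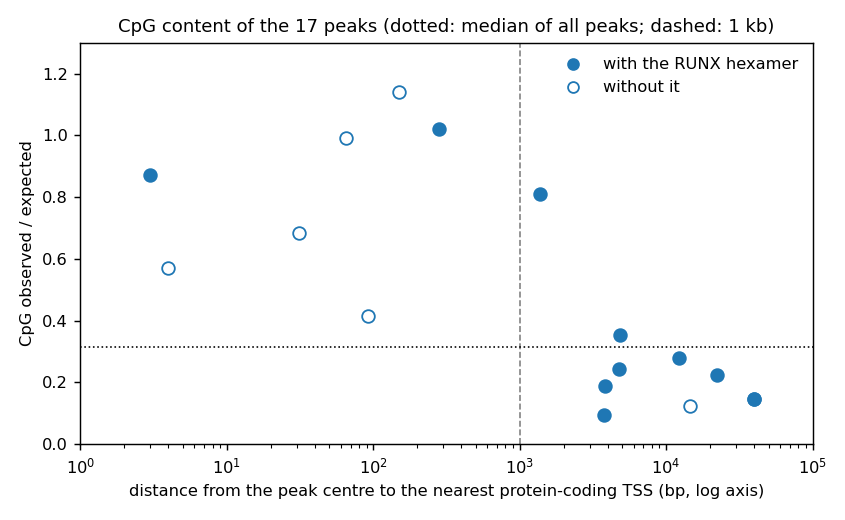
CpG content of the 17 peaks by distance from the nearest protein-coding TSS. The horizontal axis is logarithmic in bp with 1 kb dashed, the vertical axis gives the ratio of observed to expected CpG with the median of the list, 0.316, dotted, and filled points hold TGTGGT. The 7 peaks within 1 kb all lie above the dotted line, and the most distant filled point stands for 2 Tle3 peaks with the same ratio of 0.145.

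Other sequences were less frequent. GAGGAAG occurred in 8 of the 17 peaks, 5 of them at Tle3, or 47.1% with an interval of 26.2% to 69.0%, against 32.7% of the list. TGACGT, the sequence bound by zDC (Zbtb46), a factor of conventional DC, occurred in 2, the Tle3 promoter peak and the peak upstream of Aes, or 11.8%, against 11.0% of the list. TGANTCA occurred in 1, or 5.88%, against 13.2% of the list. Each share of the list lay inside the interval at the TLE genes.

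Among the other lists of pathway genes, that of the RUNX factors had the highest median number of peaks. All 4, Runx1, Runx2, Runx3 and Cbfb, the last encoding the common partner subunit, had peaks, with a median of 7.5 against 1.0 over all protein-coding genes, and 3 had a promoter peak. Over all protein-coding genes 62.6% had a peak and 24.9% a promoter peak, and the counts of the other lists below stand beside the same shares. Runx3 had 12 peaks with a highest score of 150.6, Runx1 had 11 with a highest score of 156.1, and Cbfb had 4 with a highest score of 17.32. Runx2 had 3 with a highest score of 16.53. Per 100 kb of window, Runx3 had 7.63 peaks, Runx1 3.39, Cbfb 2.72 and Runx2 0.716, against a median of 0.88 over all protein-coding genes. Their windows were longer than those of the TLE genes, a median of 241.0 kb against 131.2 kb, and the median over all protein-coding genes was 115.4 kb. The highest Tle3 peak was thus lower than the highest at Runx1 and Runx3 and above every peak at Cbfb and Runx2.

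Of 10 genes for other corepressor subunits, 7 had a peak, near the 62.6% of all protein-coding genes, and 6 had a promoter peak, against 24.9%. Their median was 2.0 peaks, against 1.0. Rcor1, the CoREST scaffold, had 4 peaks with a highest score of 25.57. Ncor1, a nuclear receptor corepressor, had 3 with a highest score of 38.99. The histone deacetylase gene Hdac2, Sin3b and Ctbp1 had none. Of 14 genes listed as encoding factors that recruit TLE proteins, 12 had a peak, against 62.6% of all protein-coding genes. Of the 14, 3 had a promoter peak, near the 24.9%. Their median was 2.0, against 1.0. Whether each listed factor, the Hey proteins among them, binds TLE proteins was not checked here. The Wnt effector gene Tcf7l2 had 4 peaks with a highest score of 48.33. The B cell factor gene Pax5 and Prdm1, which encodes Blimp-1, had 3 each with highest scores of 16.87 and 16.53 and no promoter peak. The Hairy-related genes Hes1 and Hey2 also had 3 each, with lower highest scores of 8.49 and 9.16, and both had a promoter peak. Hey1 and Nkx2-2 had none. All 3 acetyltransferase genes listed as RUNX coactivators had peaks, with a median of 1.0, the same as over all protein-coding genes, of which 62.6% had a peak. Ep300 had 6 with a highest score of 20.27, Crebbp had 1 with a score of 54.74 and Kat6a had 1 with a score of 4.65. The median score was 17.32 over the TLE peaks, 13.24 over those of the RUNX factors and 19.08 over those of the corepressor subunits. It was 9.5 over those of the listed recruiting factors and 8.18 over those of the coactivators. The binomial interval of the TLE median, 7.84 to 24.06, holds each of these other medians, and the differences were not tested. With peaks assigned by nearest TSS the TLE median was 12.54, near the 12.14 of the whole list.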

How the data were processed

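Runx3 ChIP-seq was measured in 2 Runx3 and 2 input samples of WT splenic CD4+ DC. Fragments were of about 300 bp and reads of 50 bp. The authors aligned reads to mm9 with Bowtie and called peaks with MACS2 in 1 comparison of both Runx3 with both input samples. Per the submitters' processing notes CASAVA 1.8 was used. The versions of Bowtie and MACS2 and the threshold are not given in the sources used here. The deposited list gives chromosome, start, end and a MACS2 score, whose unit is not stated, so scores served only to rank and compare peaks within the list. Reads per sample were not analysed here.

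Peaks were placed by their centre on genes of GENCODE M1 (protein-coding, chromosomes 1 to 19, X and Y), with positions counted from 1 and sequence from NCBIM37, the same assembly. Ranks are by score from the highest, with ties sharing the better rank. Exon and intron numbers are those of each gene's longest coding transcript. Kat6a is listed as Myst3 in the annotation. Expected CpG is the product of the C and G counts divided by the width. The TLE genes, the pathway lists and the hexamer were chosen with earlier results of these data known, and the searches for TGCGGT alone, for TGACGT and for GAGGAAG and also for TGANTCA were added after the peaks were seen. Named genes were the 6 TLE genes, the gene with the nearest TSS to each of their peaks, and in each pathway list the 3 genes with the most peaks, ties going to the highest score, and, up to 5, those without any. Hes1 and Hey2, tied in number of peaks, were named after their values were seen. Runx2 was named beside them because its list has only 4 genes. The result for 1 gene under this rule is not reported here.

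With a pooled list there is no value per replicate, so no test was run. Shares have Wilson 95% intervals. Alternatives were score minimums, windows from the gene body to 100 kb, any base of the peak, peaks closer than 300 bp joined, assignment by nearest TSS or by basal plus extension domains (5 kb upstream, 1 kb downstream, up to 1000 kb), degenerate hexamers, 200 bp at the centre and downstream windows. The placement, the hexamer search and the domains were tested on simulated data. Tools were samtools 1.23.1, pysam 0.24.0, matplotlib 3.10.9, pandas 2.3.3, scipy 1.17.1, numpy 2.4.6 and Python 3.11.15.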

Additional observations from a re-analysis of the deposited data

How the results depend on the processing

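No paired analysis was possible because the deposited list is a pooled call with no value per replicate, and for the same reason no replicate could be left out. The 17 peaks at the TLE genes fell to 10 at a score at or above the median of the list, 5 at or above its upper quartile, 10 in windows of 10 kb and 3 in the gene bodies alone, each by construction of the narrower rule. The number of TLE genes with a peak fell from 6 to 3 for gene bodies alone, and was 4 both by nearest TSS and by basal plus extension domains, which left Aes and Tle2 without a peak. By domains Tle3 had 13 peaks, Tle4 had 3, Tle1 and Tle6 had 2 each. The share with TGTGGT of 64.7% compares with 29.4% in downstream windows. The other 23 of 29 alternatives stayed within 1.5 times the count or inside the 95% interval. The median score ranged from 12.54 by nearest TSS to 19.78 in gene bodies, inside the binomial interval of the median of 17.32, which runs from 7.84 to 24.06. Depth limits how weak a peak can be called, and a single pooled list cannot show which peaks both Runx3 samples share.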
